A study of Mus musculus with 2 samples.

Results

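Dendritic cells of gonadal white adipose tissue (gWAT) that carry Cd209a, Flt3, Ccl22 or Ccl17 transcripts were followed here in single-cell RNA sequencing of the stromal vascular fraction (SVF), the stromal, vascular and immune cells left after adipocytes are removed. The members were chosen by measured values, their own UMIs of 13 genes. A cell was a member when 500 or more genes were detected in it, no more than 10% of its UMIs were mitochondrial, and it had at least 3 UMIs summed over Cd209a, Flt3, Ccl22 and Ccl17, at least 10 UMIs of Cd74, no UMI of Xcr1, Clec9a, Cd79a or Cd3e, at most 3 UMIs summed over C1qa, C1qb and C1qc, and fewer than 10 UMIs of Dcn. A UMI (unique molecular identifier) marks a captured RNA molecule. The rule found 198 members among 4839 cells that passed the filters on genes and mitochondrial UMIs. The littermate control library held 162 of 3881 such cells (4.17%, exact Clopper-Pearson 95% interval 3.57 to 4.85), and the Adipo-Pgam1 KO library 36 of 958 (3.76%, 2.65 to 5.16). There was 1 library of each genotype, from male C57BL/6 mice aged 13 weeks. The KO mice were Adipoq-Cre; Pgam1 flox/flox, so that the Adipoq promoter, which is active in adipocytes, drove the deletion of the floxed Pgam1 alleles. The labels call the other library littermate wildtype, and the authors describe the littermate controls as Pgam1 flox/flox without Adipoq-Cre. How many mice went into a library is not given in the sources used here. Cells are not replicates, so no test was run. Intervals here are at 95% and cover counting error only, and a difference between the libraries describes these 2 libraries and not the genotypes.

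Dendritic cells take up antigen and show it to T cells on MHC class II. The type 1 subset depends on Irf8 and Batf3 and carries Xcr1 and Clec9a. The type 2 subset is known for Irf4, Sirpa and lectins such as Cd209a, Mgl2 and Clec10a, and in skin and gut it is known for priming type 2 helper T cells. Upon maturation a dendritic cell of either subset turns on Ccr7, the receptor for Ccl19 and Ccl21 that guides it along lymph vessels to the draining lymph node. It then assembles the actin bundler Fscn1, co-stimulatory molecules and chemokines that attract T cells, such as Ccl22 and Ccl17, the ligands of Ccr4. Adipose tissue holds both subsets beside a larger number of macrophages.

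The members held more RNA than the median cell. Their median was 12304 UMIs in the control library and 16709 UMIs in the KO library, against 6948 and 7452.5 UMIs over the cells that passed the filters. The gate counts raw UMIs, so that a deeper cell meets its lower limits more easily and its upper limits less easily. Of the members, 11 control cells and 1 KO cell sat at the lower limit of 3 UMIs of the 4 gate genes, and 8 control and 4 KO cells that met the other terms had 2 UMIs. The median member had 14 UMIs of the gate genes in the control library and 16 in the KO library, and 309 and 385 UMIs of Cd74. Of all cell barcodes, 9 occurred in both libraries, and 0 of these were members. A doublet caller (Scrublet) would have removed 7 control members, 1 of them with a Ccr7 UMI, and 0 KO members.

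A Ccr7 UMI was found in 15 of the 162 control members (9.26%, 5.28 to 14.8) and in 8 of the 36 KO members (22.2%, 10.1 to 39.2). The 2 intervals overlapped. Thinning the members to a depth of 2000 UMIs gave shares of 8.13% (13 of 160, 2 shallower cells left out) and 19.4% (7 of 36). Ccr7 RNA was rarer in the other gated groups it was counted in, which did not include T or B cells. A UMI of it was found in 14 of 1147 control fibroblasts (1.22%, cells with at least 10 Dcn UMIs) at a median of 11586 UMIs, a depth close to the members' 12304. Among the cells gated as type 1 dendritic cells by Xcr1 and Clec9a, 3 of 92 control cells and 0 of 28 KO cells had one, the latter at a median of 20781 UMIs, which allows a share of up to 10.7%, taking 3 cells of the total as the limit at a count of 0. A Ccr7-positive cell of the type 1 subset without Xcr1 and Clec9a UMIs could count only as a member. The share in the type 1 gate is thus in part set by the gates. The Ccr7-positive members had a median of 12459 UMIs in the control library and 10831.5 UMIs in the KO library, and the Ccr7-negative members 12219 and 18070.5 UMIs.

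In the GRCm38 annotation the genes that carry most of the description are Cd209a (chr8:3743397-3748984), Mgl2 (chr11:70130329-70137550), Ccr7 (chr11:99144196-99155077), Ccl5 (chr11:83525778-83530518), Fscn1 (chr5:142960343-142973185), Ccl22 (chr8:94745590-94751699) and Ccl17 (chr8:94810453-94812036). Reads came from the 3′ ends of transcripts and were counted per gene.

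The lectins of the type 2 subset were found in most Ccr7-negative members and in few of the Ccr7-positive ones. Levels are given as CPM, the UMIs of a gene summed over all cells of a group and scaled to a total of 1000000. Among Ccr7-negative members, 140 of 147 control cells and 26 of 28 KO cells had a Cd209a UMI, at 992 and 744 CPM. Cd209a is a gene of the rule, so that its detection there is in part fixed by the gate. Mgl2, a galactose-type lectin that the rule did not use, reached 1065 CPM there in the control and 1154 CPM in the KO library, against 225 and 153 CPM in the type 1 dendritic cells. Clec10a, its close relative, reached 499 and 387 CPM against 80.2 and 7.54 CPM. Sirpa, an inhibitory receptor, had 222 and 118 CPM, and Irf4 142 and 132 CPM. Zbtb46, a transcription factor shared by the conventional subsets, was at 54.4 and 44.7 CPM, against 6.37 and 4.17 CPM in macrophages gated by C1q. Not all of these markers set the members apart from macrophages. Mgl2 was at 869 and 400 CPM in macrophages, Clec10a at 626 and 367 CPM and Sirpa at 420 and 376 CPM, against 138 and 12.5 CPM for Cd209a and 77.7 and 38.9 CPM for Irf4. With each control cell thinned to 2000 UMIs, Mgl2 was found in 55.2% of Ccr7-negative members and 65.4% of macrophages, Clec10a in 46.2% and 58.8%, and Sirpa in 35.2% and 52.7%. Of the Ccr7-positive members, 3 of 15 control cells and 1 of 8 KO cells had a Cd209a UMI, and 1 of 15 and 2 of 8 had an Mgl2 UMI. They entered the gate mainly through the other genes: 11 of 15 and 7 of 8 had a Flt3 UMI, and 13 of 15 and 5 of 8 a UMI of Ccl22 or Ccl17. The exception was a KO cell with 51 UMIs of Cd209a, 26 of Mgl2 and 1 of Ccr7, which carried all the Cd209a RNA of the KO Ccr7-positive cells. For most Ccr7-positive members the name type 2 is therefore not backed by its own lectins, and they are called here by their Ccr7 transcript. Other subset genes were mixed. Sirpa was found in 11 of 15 and 4 of 8 of them, against 15 of 92 and 2 of 28 type 1 cells. Irf4 was found in 5 of 15 and 0 of 8, against 23 of 92 and 3 of 28. Irf8 was found in 3 of 15 and 4 of 8, against 80 of 92 and 26 of 28. The subset these cells came from was not tested.

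**Figure D1:**
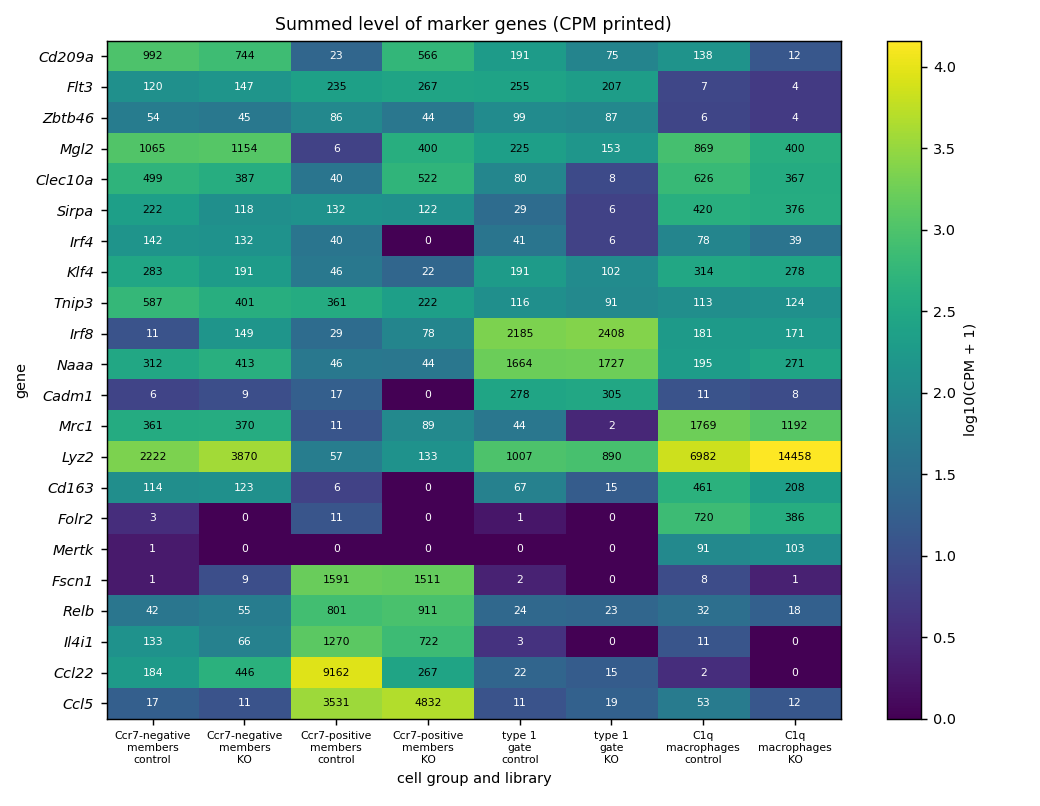
Summed level of 22 marker genes (rows) in 8 groups of cells (columns: Ccr7-negative members, Ccr7-positive members, cells gated as type 1 dendritic cells and C1q macrophages, each in the control and the KO library). Colour is log10(CPM + 1) and the printed number is the CPM. Cd209a was high in the Ccr7-negative columns, Mgl2 there and in the macrophage columns, Irf8 and Naaa in the type 1 columns, Lyz2, Mrc1 and Folr2 in the macrophage columns, and Fscn1, Relb, Il4i1 and Ccl5 in the Ccr7-positive columns.

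Macrophage transcripts were present in the Ccr7-negative members at a level between those of type 1 dendritic cells and macrophages. The 14 listed macrophage genes summed to 3049 CPM in control and 4688 CPM in KO Ccr7-negative members, to 1354 and 1148 CPM in type 1 dendritic cells, and to 17299 and 21057 CPM in macrophages. In the Ccr7-positive members they summed to 155 and 411 CPM. Among genes of resident macrophages, Folr2 and Mertk were near 0. Folr2 had 2.54 CPM in control and 0 UMIs in KO Ccr7-negative members, against 720 and 386 CPM in macrophages. Mertk had 1.02 CPM and 0 UMIs against 90.9 and 103 CPM. Mrc1, the mannose receptor, was higher, with 361 and 370 CPM against 1769 and 1192 CPM, and Lyz2, the lysozyme of myeloid cells, had 2222 and 3870 CPM against 6982 and 14458 CPM. Cd163, also a macrophage gene, had enough UMIs to be counted, and was at least 2-fold lower in Ccr7-positive than in Ccr7-negative members in both libraries. The C1q genes are limited by the rule and so tell nothing, and low values of genes that go with C1q are in part set by it. The part of macrophage RNA in the levels of these genes was not tested. Markers of T cells were scarce, with 17.3 and 18.5 CPM over 11 genes in the members. The 12 listed plasmacytoid dendritic cell genes summed to 368 and 438 CPM, and to 383 and 249 CPM in type 1 dendritic cells.

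Ccr7-positive and Ccr7-negative members were compared within each library, in sums of 15 against 147 control cells and 8 against 28 KO cells. A gene was counted as higher or lower when its CPM differed at least 2-fold in the same direction in both libraries, among genes with at least 50 UMIs over all members. Of 5977 such genes, 305 (5.10%) were higher and 322 (5.39%) lower in Ccr7-positive cells. Only 4671 of them had enough UMIs for a ratio in both libraries, so the others could not be counted in either direction. Of 49 listed genes of mature dendritic cells, 35 had enough UMIs, and 29 of these were higher in both libraries and 0 lower. Their median log2 ratio was 3.90 in the control (46 genes with 10 or more UMIs) and 3.72 in the KO library (39 genes). Over all genes with at least 50 UMIs and a ratio in the library, the medians were -0.23 and -0.05. The listed genes are known to accompany Ccr7, the cells were split by Ccr7 itself, and the list was drawn up with earlier results of these data known, so that the counts describe the split and do not test it. A gene expressed only in Ccr7-positive cells could reach 50 UMIs only by being high there. TMM factors, which centre the ratios on genes of unchanged level, would raise each log2 ratio of this comparison by 0.18 in both libraries, and with them 366 genes were higher and 232 lower.

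Fscn1, the actin bundler of dendritic cell protrusions, followed Ccl5 at the head of the higher genes. In the 15 control Ccr7-positive cells it ranged from 0 to 95 UMIs with a median of 11, and in the 8 KO cells from 0 to 84 with a median of 4.5. The 147 control Ccr7-negative cells held 2 Fscn1 UMIs in all and the 28 KO cells 5. This gave 1591 against 1.02 CPM in the control, a log2 ratio of 10.61 (8.75 to 13.67), and 1511 against 8.95 CPM in the KO library, a log2 ratio of 7.40 (6.14 to 9.05). Of the KO UMIs, 61.8% came from 1 cell. Apol7c, an apolipoprotein L family member of dendritic cells, had 108 UMIs in 7 control and 55 UMIs in 4 KO Ccr7-positive cells and 0 in the Ccr7-negative cells. Set against a floor of 3 UMIs, its CPM was higher by at least 8.66 and 6.83 on the log2 scale.

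Regulators of signalling followed. Cacnb3, a calcium channel subunit, was found in 13 of 15 control Ccr7-positive cells, at 418 against 1.52 CPM (log2 ratio 8.10, 6.49 to 10.41), and in 3 of 8 KO cells, at 278 CPM against 0 UMIs. Socs2, a suppressor of cytokine signalling, had 921 against 18.8 CPM in the control (5.62, 5.09 to 6.17) and 278 against 3.58 CPM in the KO library. Tbc1d4, a Rab GTPase-activating protein of glucose transporter traffic, had 1007 against 20.3 CPM (5.63, 5.13 to 6.16) and 911 against 19.7 CPM (5.53, 4.62 to 6.59). Serpinb9, an inhibitor of granzyme B, had 429 against 6.10 CPM and 233 against 3.58 CPM. Il4i1, a secreted amino acid oxidase, was found in 14 of 15 and 5 of 8 Ccr7-positive cells, with log2 ratios of 3.25 (2.99 to 3.52) and 3.45 (2.84 to 4.07). It was not confined to them: 35 of 147 control and 6 of 28 KO Ccr7-negative cells had an Il4i1 UMI. The migration list had 28 genes with enough UMIs, of which 10 were higher, among them Marcks, Marcksl1, Nrp2 and Plxnc1, and 3 lower, the integrin subunits Itgb2 and Itgb7 and the GTPase Rac2.

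**Figure D2:**
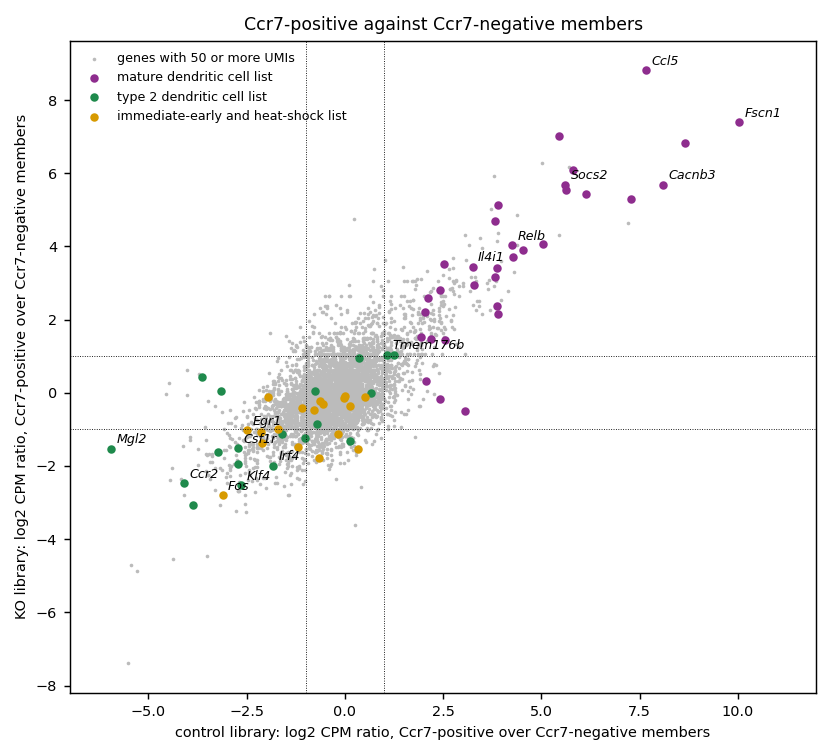
Log2 ratio of CPM, Ccr7-positive over Ccr7-negative members, in the control library (horizontal) and the KO library (vertical). Each point is a gene with 50 or more UMIs, with counts under 3 set to 3, coloured points belong to 3 lists, and dotted lines mark 2-fold. Fscn1, Ccl5 and Relb lay at the upper right, far outside the 2-fold lines in both libraries, and Mgl2, Ccr2 and Fos at the lower left.

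The NF-κB system, which turns on inflammatory and survival genes through dimers of Rel proteins, stood higher in part. Of 22 listed genes, 20 had enough UMIs, and 11 of these were higher in both libraries and 0 lower. Relb, the subunit of the non-canonical dimer, was present in 14 of 15 control and 8 of 8 KO Ccr7-positive cells, with medians of 10 and 8 UMIs. Its level was 801 against 42.2 CPM in the control (log2 ratio 4.25, 3.85 to 4.66) and 911 against 55.5 CPM in the KO library (4.04, 3.42 to 4.68). Its partner Nfkb2 had log2 ratios of 2.20 (1.50 to 2.87) and 1.46 (0.05 to 2.74). Map3k14, the kinase that activates the Nfkb2 precursor, had 2.36 (1.84 to 2.87) and 3.06 (2.29 to 3.85). Rel was found in all 15 and all 8 Ccr7-positive cells, with 2.45 (2.16 to 2.75) and 2.67 (2.20 to 3.15). The inhibitor Nfkbia, itself a target of the pathway, had 1.33 (1.12 to 1.54) and 1.54 (1.18 to 1.91). The survival genes Birc2, Birc3, Cflar and Bcl2a1b and the adaptor Traf1 were also among the 11, with control log2 ratios between 1.82 for Bcl2a1b and 3.83 for Birc2. Bcl2a1b shares near-identical copies in the genome, and how its reads were divided among them is uncertain.

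Because 11 NF-κB genes stood higher together, the 250 bases before each RefSeq transcription start (GRCm38.p6) were searched on both strands for the NF-κB consensus motif. A match was found for 8.23% of all genes (2225 of 27025), for 10.9% of genes with a ratio in both libraries and a promoter entry (399 of 3648), for 18.9% of the genes higher in Ccr7-positive cells (44 of 233 matched of 305) and for 13.4% of those lower (32 of 239 matched of 322). Of the 11 NF-κB genes, 10 had an entry and 3 a match, and of the 29 mature dendritic cell genes 19 had an entry and 3 a match. Of 38 named genes looked up, 27 had an entry and 5 a match: Nfkb2, Nfkbia, Rel, Spint2 and Basp1. Their windows are shown because these 5 genes were all higher in the Ccr7-positive cells, with that of Ccl22, which had no match, beside them. Each window is written 5′ to 3′ on the strand of its gene and ends at the base before the start, and capitals mark the matched bases, which can belong to overlapping matches.
Nfkb2 (chr19:46304487-46304736, plus strand): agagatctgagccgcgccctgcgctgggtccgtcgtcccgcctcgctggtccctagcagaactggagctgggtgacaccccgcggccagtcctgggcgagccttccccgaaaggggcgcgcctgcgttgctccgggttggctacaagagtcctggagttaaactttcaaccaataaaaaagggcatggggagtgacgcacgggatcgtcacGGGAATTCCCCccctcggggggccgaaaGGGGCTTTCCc
Nfkbia (chr12:55492648-55492897, minus strand): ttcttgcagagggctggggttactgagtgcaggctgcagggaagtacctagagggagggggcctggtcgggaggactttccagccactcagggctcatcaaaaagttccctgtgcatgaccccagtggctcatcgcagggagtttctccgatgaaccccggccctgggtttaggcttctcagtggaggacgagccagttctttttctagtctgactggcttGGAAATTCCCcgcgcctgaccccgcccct
Rel (chr11:23770970-23771219, minus strand): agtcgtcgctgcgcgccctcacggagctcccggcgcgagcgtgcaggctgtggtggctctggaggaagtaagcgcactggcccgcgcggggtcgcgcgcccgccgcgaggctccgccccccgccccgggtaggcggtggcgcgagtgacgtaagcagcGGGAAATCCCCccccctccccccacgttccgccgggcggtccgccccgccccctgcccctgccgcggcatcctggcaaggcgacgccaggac
Spint2 (chr7:29281978-29282227, minus strand): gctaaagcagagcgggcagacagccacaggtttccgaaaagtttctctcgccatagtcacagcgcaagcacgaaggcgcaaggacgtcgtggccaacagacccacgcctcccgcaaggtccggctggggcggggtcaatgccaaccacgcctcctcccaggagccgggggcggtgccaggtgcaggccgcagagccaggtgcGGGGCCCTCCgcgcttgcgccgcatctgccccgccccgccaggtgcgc
Basp1 (chr15:25413765-25414014, minus strand): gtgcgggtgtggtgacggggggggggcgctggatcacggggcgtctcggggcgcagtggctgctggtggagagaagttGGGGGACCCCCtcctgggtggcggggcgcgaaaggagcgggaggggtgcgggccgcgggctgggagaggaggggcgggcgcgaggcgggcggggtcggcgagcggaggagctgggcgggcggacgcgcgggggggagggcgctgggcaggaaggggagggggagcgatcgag
Ccl22 (chr8:94745434-94745683, plus strand): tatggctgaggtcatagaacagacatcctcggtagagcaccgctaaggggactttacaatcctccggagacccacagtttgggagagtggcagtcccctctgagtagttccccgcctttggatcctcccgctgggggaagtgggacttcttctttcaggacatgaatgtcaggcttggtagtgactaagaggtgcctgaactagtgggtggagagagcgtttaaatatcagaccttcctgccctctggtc

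In the Nfkb2 window shown the matches began 39, 38 and 11 bases before the start, and 2 further Nfkb2 starts had a match each, 236 and 225 bases before them. Matches began 29 bases before the start in Nfkbia, 92 and 91 in Rel, 48 in Spint2, and 172 and 171 in Basp1. A match to these letters is a description and not a binding site, and a window without one says only that the letters are not in it. Spint2, a protease inhibitor of the cell surface, had 183 against 5.59 CPM in the control (log2 ratio 5.03, 4.01 to 6.17) and 333 against 19.7 CPM in the KO library (4.08, 3.04 to 5.23). Basp1, a membrane-bound protein of the growing neurite, had log2 ratios of 3.90 (3.63 to 4.18) and 2.15 (1.70 to 2.60).

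Chemokines differed among the Ccr7-positive cells. Ccl5, a chemokine that draws T cells, had 617 UMIs in 10 of 15 control and 435 UMIs in 5 of 8 KO Ccr7-positive cells, against 34 and 6 UMIs in all Ccr7-negative cells. Its level was 3531 against 17.3 CPM in the control (log2 ratio 7.68, 7.18 to 8.22) and 4832 against 10.7 CPM in the KO library (8.81, 7.68 to 10.27), where 55.4% of the UMIs came from 1 cell. Ccl22 was unlike it. In the control cells it ranged from 0 to 664 UMIs with a median of 5, and in the KO cells from 0 to 13 with a median of 2. The control cells with 664, 482, 194 and 129 Ccl22 UMIs had 0 or 1 UMI of Ccl5, and those with 66 and 38 Ccl22 UMIs had 101 and 58 of Ccl5. With a limit of 10 UMIs, 4 control cells had Ccl22 without Ccl5, 5 had Ccl5 without Ccl22, 2 had both and 4 had neither. Of the KO cells, 0 had Ccl22 without Ccl5, 3 had Ccl5 without Ccl22, 1 had both and 4 had neither.

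**Figure D3:**
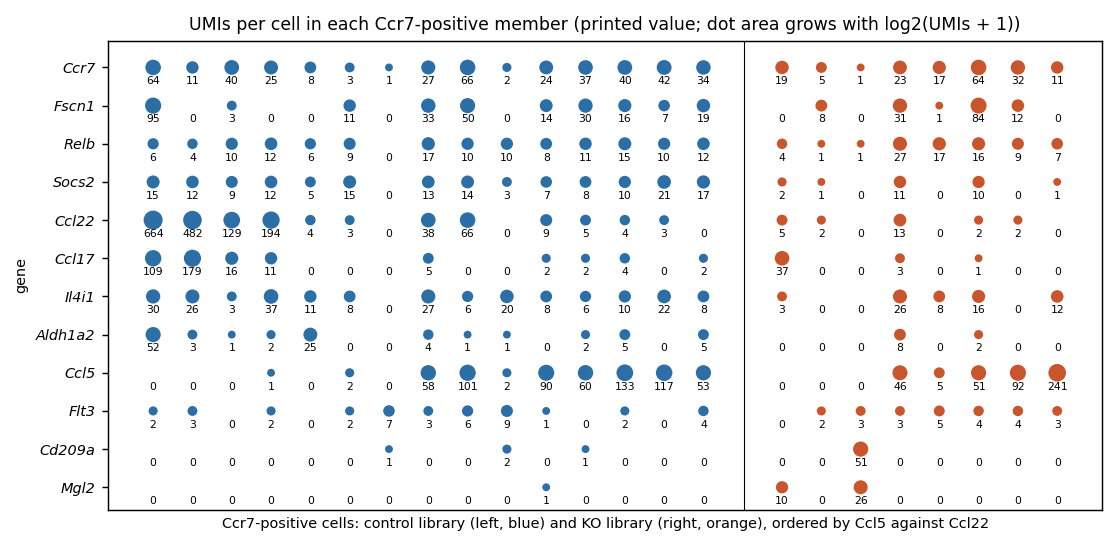
UMIs per cell of 12 genes (rows) in each of the 23 Ccr7-positive members (columns), 15 of the control library in blue and 8 of the KO library in orange. The printed number is the UMI count and the dot area grows with its log2. Ccl22 reached 664 UMIs in the control and 13 UMIs in the KO cells, Ccl5 133 and 241 UMIs, and the cells with most Ccl22 had 0 or 1 UMI of Ccl5.

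Ccl22 and Ccl17 served to choose the members, and their levels are given as a description. In the control, Ccl22 was at 9162 CPM in Ccr7-positive and 184 CPM in Ccr7-negative cells. In the KO library it was at 267 and 446 CPM, and 92.0% of the latter came from 1 Ccr7-negative cell. Ccl17 was at 1889 against 874 CPM in the control and 455 against 1095 CPM in the KO library. Among Ccr7-negative cells it was found in 29 of 147 and 9 of 28 cells, and 3 cells held 61.8% and 97.2% of its UMIs. Most RNA of both chemokines thus lay in few cells, on either side of the Ccr7 split. Cxcl16, the ligand of Cxcr6, was found more evenly, in 14 of 15 and 7 of 8 Ccr7-positive cells, with log2 ratios of 3.88 (3.51 to 4.25) and 2.39 (1.80 to 2.97). Of the 7 listed chemokines outside the rule with enough UMIs, Ccl5 and Cxcl16 were higher and Ccl6, Ccl9 and Ccl24 lower. Ccl6 was at 80.1 against 1066 CPM in the control and 322 against 1270 CPM in the KO library.

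Chemokine receptors differed in both directions. Ccr2, the receptor that draws cells out of the blood, was detected in 142 of 147 control and 27 of 28 KO Ccr7-negative cells and in 5 of 15 and 2 of 8 Ccr7-positive cells. Its level was 91.6 against 1549 CPM in the control, a log2 ratio of -4.08 (-4.89 to -3.38), and 200 against 1104 CPM in the KO library, a log2 ratio of -2.47 (-3.23 to -1.79). Ccr1 had 0 UMIs in the Ccr7-positive cells of both libraries, against 126 and 68 UMIs. Cxcr4 and the oxysterol receptor Gpr183 were higher, at 114 against 34.5 CPM and 412 against 83.3 CPM in the control, and 322 against 55.5 CPM and 255 against 84.1 CPM in the KO library.

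Of 12 co-stimulatory and inhibitory ligands with enough UMIs, 5 were higher in both libraries and 1 lower. Cd40, the receptor through which helper T cells license dendritic cells, had log2 ratios of 3.28 (2.74 to 3.82) and 2.93 (1.78 to 4.11). Cd274, which encodes PD-L1, had 29 UMIs in 10 control and 17 UMIs in 3 KO Ccr7-positive cells, against 22 and 1 UMIs in the Ccr7-negative cells. Cd83 had log2 ratios of 2.55 (2.27 to 2.83) and 1.44 (0.997 to 1.88), Icosl 1.53 (0.94 to 2.08) and 2.15 (1.24 to 3.03), and the adhesion molecule Icam1 2.18 (1.71 to 2.63) and 2.02 (1.11 to 2.91). Vsir, the inhibitory receptor VISTA, was the lower gene. Cd86 rested on few UMIs, with a log2 ratio of 1.25 (0.17 to 2.21) in the control and 11.1 against 16.1 CPM in the KO library, where the interval of the ratio ran from -5.99 to 2.32. Il12b, a subunit of interleukin-12, had 9 UMIs in 4 control Ccr7-positive cells and 0 in the other members of both libraries, and Il10 had 0 UMIs in all members.

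Cytokine receptors higher in both libraries were Il7r, which binds interleukin-7 and thymic stromal lymphopoietin, the beta chains Csf2rb and Csf2rb2, Il21r, Tnfrsf11a and Tnfrsf1b, 6 of 21 with enough UMIs. Il7r was detected in 12 of 15 control and 6 of 8 KO Ccr7-positive cells, with log2 ratios of 3.97 (3.35 to 4.61) and 2.55 (1.47 to 3.62). Its partner in the receptor for thymic stromal lymphopoietin, Crlf2, went the other way, with -1.37 (-2.45 to -0.47) and -2.19 (-4.50 to -0.59). The interleukin-33 receptor Il1rl1 was at 5.72 against 149 CPM in the control and 33.3 against 145 CPM in the KO library. Among Ccr7-negative cells Il1rl1 was found in 92 of 147 and 20 of 28 cells. Of 13 listed genes of type 2 signalling with enough UMIs, 6 were lower in Ccr7-positive cells and 1, Il7r, was higher.

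Genes of antigen presentation differed in both directions. Of 15 MHC class II genes with enough UMIs, 4 were lower in both libraries and 0 higher, and in the KO library alone 4 of 14 genes were at least 2-fold higher and 4 lower. H2-Ab1, a beta chain of the class II molecule, was at 3331 against 9451 CPM in the control, a log2 ratio of -1.50 (-1.63 to -1.39), and at 4343 against 10602 CPM in the KO library, -1.29 (-1.44 to -1.14). H2-DMa and H2-DMb1, which load peptides onto class II, had control log2 ratios of -2.58 and -3.38 and KO log2 ratios of -1.28 and -1.89. Cd74, the invariant chain, is a gene of the rule and had -1.07 and -0.69. H2-Eb2, a rarely expressed class II chain, stood apart with 29 UMIs in 9 control and 14 UMIs in 4 KO Ccr7-positive cells against 5 and 0 UMIs, but was under the limit of 50 UMIs. Of 13 class I genes, B2m, H2-K1 and the peptide transporter Tap2 were higher and the chaperones Calr and Pdia3 lower. B2m, the light chain of class I, had log2 ratios of 1.59 (1.46 to 1.72) and 1.63 (1.43 to 1.82).

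Of 36 listed transcription factors with enough UMIs, 5 were higher and 7 lower. Besides Relb the higher ones were Etv3, Nr4a3, Stat3 and Stat4. Etv3, an ETS repressor, was found in all 15 and all 8 Ccr7-positive cells, at 1425 against 223 CPM in the control and 1566 against 218 CPM in the KO library. Nr4a3, an orphan nuclear receptor, had log2 ratios of 3.64 (3.26 to 4.03) and 2.85 (2.12 to 3.59). Irf4 and Klf4, factors of the type 2 subset, were among the lower ones. Irf4 was at 40.1 against 142 CPM in the control, a log2 ratio of -1.83 (-3.16 to -0.77), and had 0 UMIs in KO Ccr7-positive cells against 132 CPM. Klf4 was at 45.8 against 283 CPM and at 22.2 against 191 CPM. Of 19 type 2 subset genes outside the rule with enough UMIs, 10 were lower and 2, Tmem176a and Tmem176b, higher. Of 9 type 1 subset genes, 2 were lower, Naaa and Ppt1, and 0 higher.

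Genes of glucose breakdown were lower in part. Of 16 listed genes with enough UMIs, 4 were lower and 1 higher in both libraries. Pgam1, the phosphoglycerate mutase deleted in adipocytes of the KO mice, was at 63.0 against 131 CPM in the control, a log2 ratio of -1.05 (-2.07 to -0.19) from 11 UMIs in Ccr7-positive cells, and at 44.4 against 166 CPM in the KO library, -1.91 (-3.81 to -0.50) from 4 UMIs. Eno1, the next enzyme of the pathway, had -1.16 (-2.09 to -0.37) and -1.62 (-2.97 to -0.54), Ldha -1.48 (-2.40 to -0.69) and -1.20 (-2.23 to -0.32), and Pfkp -1.17 (-2.25 to -0.27) and -2.07 (-3.97 to -0.67). TMM factors would raise each of these log2 ratios by 0.18. In the control library Pgam1, Eno1 and Pfkp would then fall short of 2-fold, and only Ldha would stay 2-fold lower in both libraries. Pfkfb3, which makes the activator of phosphofructokinase, was found in 12 of 15 and 8 of 8 Ccr7-positive cells, with log2 ratios of 3.80 (3.22 to 4.40) and 5.93 (4.61 to 7.61).

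Retnla and Lyz2 stood first among the lower genes. Retnla, a secreted resistin-like protein induced by interleukin-4, was at 80.1 against 3639 CPM in the control (log2 ratio -5.51, -6.38 to -4.76) and at 22.2 against 5560 CPM in the KO library (-7.97, -11.01 to -6.11). Lyz2 had -5.28 (-6.34 to -4.40) and -4.86 (-5.81 to -4.05). Fn1, Lpl, Lyz1, Fcrls and Ifitm6 followed in rank. Of 6 listed macrophage genes with enough UMIs, 4 were lower. Of 20 immediate early and stress genes, 5 were lower, namely Fos, Fosb, Jun, Egr1 and Atf3, and 0 higher. Fos had log2 ratios of -3.11 (-3.77 to -2.52) and -2.80 (-3.72 to -2.01). Of 17 cell cycle genes with enough UMIs, 6 were lower. At least 3 UMIs of Mki67 and Top2a were present in 12 of 147 control and 4 of 28 KO Ccr7-negative cells, and the Ccr7-positive cells had 0 UMIs of either gene. In 15 and 8 cells, a count of 0 allows a share of cells with an Mki67 UMI of up to 20.0% and 37.5%, again taking 3 cells of the total.

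The Ccr7-negative members were not uniform in their macrophage transcripts. Over 13 macrophage genes without Lyz2, a control cell had between 0 and 40 UMIs with a median of 9, and a KO cell between 1 and 46 with a median of 11.5, against medians of 75.5 and 44 UMIs in C1q macrophages. A limit of 10 UMIs, chosen after the values were seen, put 69 of 147 control and 14 of 28 KO cells in the higher group. It cuts a continuous range: 31 control and 4 KO cells had 7 to 9 UMIs, and 18 and 0 had 10 to 12. The higher group was deeper, with medians of 14467 against 11116 UMIs in the control library and 20033 against 14985.5 UMIs in the KO library. Genes outside the macrophage list are set side by side here with no test.

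Cells of the higher group had more Retnla, with log2 ratios of 2.19 in the control library and 2.16 in the KO library, Fn1 (1.58 and 5.50), Lyz2 (1.33 and 3.28) and the scavenger-like receptor Fcrls (1.67 and 5.87). Of the type 2 lectins, Mgl2 had 0.61 and 0.83 and Cd209a 0.18 and 0.92, whereas Clec10a had -0.32 (-0.50 to -0.13) in the control and 0.13 (-0.27 to 0.54) in the KO library. Flt3, the receptor that sustains dendritic cells, was lower, with -0.87 (-1.26 to -0.49) and -2.43 (-3.32 to -1.62). Ccl17 was lower as well, with -2.35 and -2.48, as were Il1b (-2.16 and -1.98) and Il4i1 (-2.13 and -5.55). H2-Ab1 was at the same level in both groups, with -0.02 and -0.05. Flt3, Ccl17 and Cd209a are genes of the rule. Several of the KO ratios, from 14 against 14 cells, rested on few cells: among KO Ccr7-negative members, 3 cells held 97.2% of the Ccl17 UMIs, 81.1% of Il4i1, 77.4% of Fn1, 72.8% of Retnla and 65.7% of Lyz2.

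**Figure D4:**
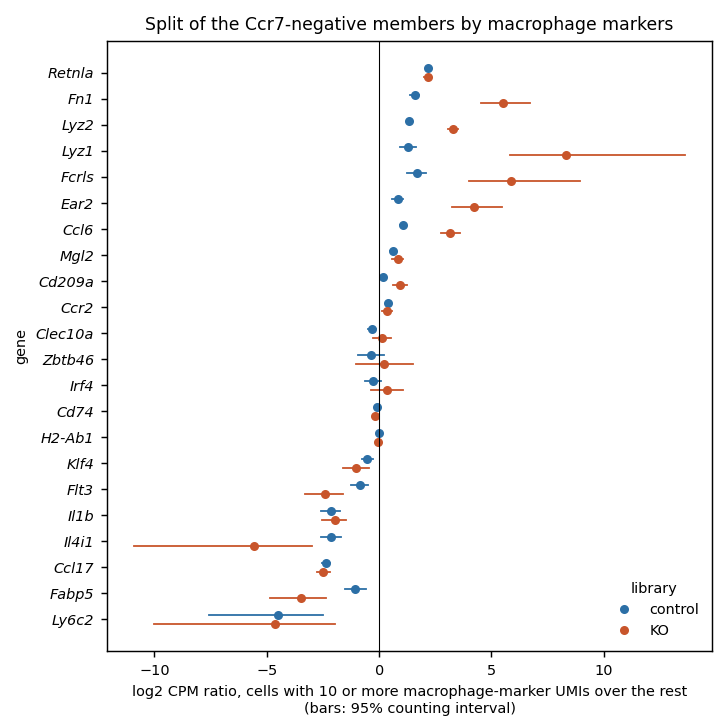
Log2 ratio of CPM in Ccr7-negative members with 10 or more UMIs of 13 macrophage genes over those with fewer, for named genes in the control and the KO library. Bars are exact conditional binomial 95% intervals that cover counting error only. Retnla, Fn1 and Lyz2 lay right of 0 and Flt3, Ccl17 and Il4i1 left of it in both libraries.

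KO and control members were compared in sums of 36 and 162 cells. Pgam1 was examined first. It had 268 UMIs in 109 of 162 control members, 125 CPM (111 to 141), and 97 UMIs in 26 of 36 KO members, 149 CPM (121 to 182). The log2 ratio, KO over control, was 0.26 (-0.09 to 0.60), and 0.35 (-0.01 to 0.70) in Ccr7-negative members. Adipoq-Cre is not known to act in dendritic cells, and the level of Pgam1 there does not check the label of the KO library. Pgam2, the muscle form, had 0 UMIs in the members of both libraries. Of the neighbouring enzymes, Gapdh had a log2 ratio of 0.37 (0.22 to 0.52), Eno1 0.45 (0.16 to 0.74), Ldha 0.40 (0.13 to 0.66), Pfkp 0.43 (0.10 to 0.76) and Aldoa 0.02 (-0.28 to 0.31). Over 23 genes of glucose breakdown with 10 or more UMIs the median was 0.24, beside -0.07 over 5978 genes with at least 50 UMIs. KO members were deeper, as given above, and the part of depth was not tested.

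Of 5978 genes with at least 50 UMIs, 58 (0.970%) were at least 2-fold higher in KO members and 217 (3.63%) at least 2-fold lower. The limit of 50 UMIs was set over both libraries. Control members held 2143155 UMIs and KO members 648884, so that genes near the limit passed it mainly through the control. The larger count of lower genes is therefore not read as a fall, and both counts moved with the limit. Several of the largest differences came from few cells. Irf8 was first among the higher genes, with 90 against 26 UMIs, but 90.0% of the KO UMIs lay in 1 cell. That Ccr7-negative cell had 257 UMIs of the 16 type 1 subset genes, against a median of 12.5 in KO members. Among the lower genes, Mmp12 had 299 against 0 UMIs, of which 73.2% were in 1 control cell, and Rgs5 229 against 0 UMIs, 181 of them in 1 control cell. Tagln, Cald1 and Il1rn likewise had 81.0%, 73.4% and 67.1% of their control UMIs in 1 cell. Zmynd15 was higher over all members, with 34 against 24 UMIs, and 33 of its 34 KO UMIs lay in Ccr7-positive cells, which made up a larger share of the KO members.

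Haemoglobin genes were among the lower ones. Hbb-bs had 8783 UMIs in control members, 4098 CPM, and 204 UMIs in KO members, 314 CPM, a log2 ratio of -3.70 (-3.91 to -3.50), and Hba-a1 had -3.54 (-3.86 to -3.23). The 5 listed erythroid genes were all at least 2-fold lower. In the median member they summed to 6 UMIs in the control library and 10.5 UMIs in the KO library, and the highest cell had 4243 and 29 UMIs. The control excess therefore lay in a few cells. Sums over the type 1 dendritic cells showed the same order, with 2689 and 632 CPM. Of the 3555 erythroid UMIs behind the control sum, 2587 came from the highest cell. The median type 1 cell held 7 (control) or 12 (KO), the reverse order.

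Stress genes differed in both directions between the libraries. Of 22 immediate early and stress genes with 10 or more UMIs, 2, Hspa1a and Hspa1b, were at least 2-fold higher in KO members and 1, Egr1, lower, and the median log2 ratio was 0.14. By their intervals alone, 6 lay above and 6 below 0, beside 405 above and 572 below of 5978 genes with at least 50 UMIs. Hspa1b had UMIs in 14 of 162 control and 12 of 36 KO members, at 9.33 and 60.1 CPM, a log2 ratio of 2.69 (1.87 to 3.54), and Hspa1a had 1.99 (1.25 to 2.74). They are near-identical copies, and how reads were divided between them is uncertain. Hspa8, the constitutive form, was found in all members of both libraries, at 1140 and 1839 CPM (0.69, 0.59 to 0.79), and Hsp90aa1 had 0.52 (0.34 to 0.71). Egr1 was at 271 and 58.6 CPM (-2.21, -2.72 to -1.73), Ier2 had -0.67 (-0.92 to -0.43) and Fos -0.26 (-0.39 to -0.12). With 1 library of each genotype, genotype and library cannot be told apart.

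Cytokine genes differed in both directions. Il1b, which encodes interleukin-1β, had UMIs in 43 of 162 control and 16 of 36 KO members, at 135 and 284 CPM (1.07, 0.80 to 1.34), and 31.5% of the KO UMIs lay in 1 cell. Ccl4 had 13.5 and 67.8 CPM (2.33, 1.62 to 3.05), from 15 and 7 cells. Tnf was lower, with 89 UMIs in 45 control and 6 UMIs in 4 KO members (-2.17, -3.65 to -0.99). Cx3cr1, the fractalkine receptor, had 117 UMIs in 38 control members and 3 UMIs in 3 KO members (-3.56, -5.86 to -1.98).

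**Figure D5:**
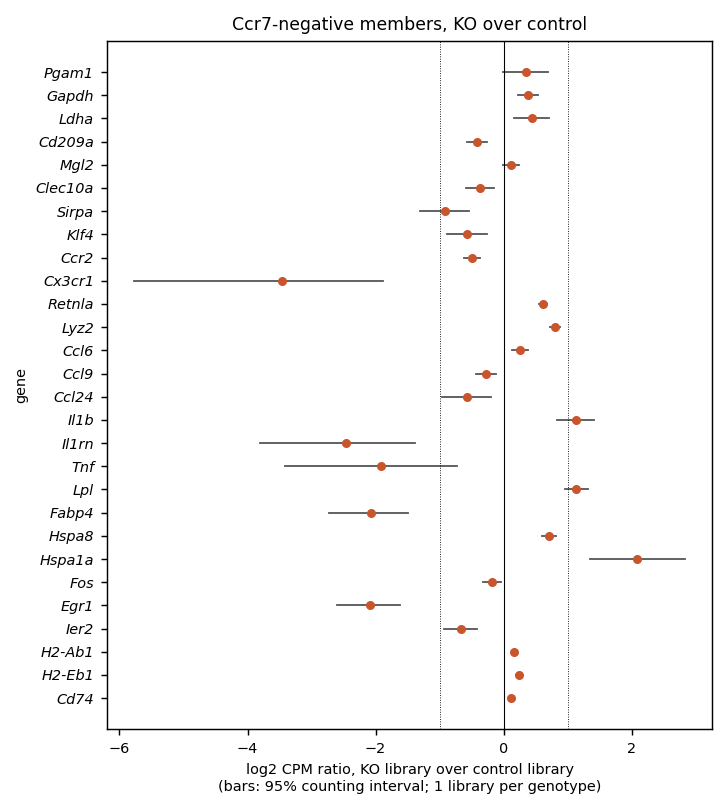
Log2 ratio of CPM, KO over control, for 28 named genes in the Ccr7-negative members. Points are ratios, bars exact conditional binomial 95% intervals that cover counting error only, and dotted lines mark 2-fold. The interval of Pgam1 reached just below 0, Hspa1a, Hspa8 and Il1b lay right of 0, and Egr1, Tnf and Cx3cr1 left of it.

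Genes that mark the subset differed by less than 2-fold with 1 exception over all members, Cd7. In Ccr7-negative members Cd209a had a KO to control log2 ratio of -0.41 (-0.57 to -0.26), Mgl2 0.12 (-0.01 to 0.24), Clec10a -0.37 (-0.59 to -0.15), Irf4 -0.10 (-0.49 to 0.27), Sirpa -0.91 (-1.31 to -0.53), Klf4 -0.57 (-0.88 to -0.27) and Ccr2 -0.49 (-0.62 to -0.36). Il1rl1 had -0.04 (-0.41 to 0.32) and Crlf2 0.04 (-0.33 to 0.39). H2-Ab1 had 0.17 (0.12 to 0.21) and H2-Aa 0.03 (-0.01 to 0.07). Of 21 type 2 subset genes with 10 or more UMIs, 1, Cd7, was at least 2-fold higher in KO members and 0 lower. By their intervals, 9 of 20 lay below 0 and 3 above it in Ccr7-negative members. Over all genes with at least 50 UMIs there, 486 of 5659 lay below 0 and 379 above it. Retnla had 0.52 (0.46 to 0.58) over all members, but 48.5% of its KO UMIs lay in 1 cell, and without the 12 control and 4 KO cycling members it had -0.49. Lyz2 had 0.71 (0.64 to 0.79), and -0.97 without the 69 control and 15 KO members that had 10 or more UMIs of macrophage genes. In the Ccr7-positive members, 8 KO and 15 control cells, Ccl22 had -5.10 (-5.75 to -4.52), Socs2 -1.73 and Ccl5 0.45 (0.27 to 0.63). Ccl22 is a gene of the rule, and its interval leaves out the spread between cells. Single control cells reached 664 and 482 Ccl22 UMIs, whereas the median Ccr7-positive cell held 5 (control) or 2 (KO).

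The members were set against 92 control and 28 KO cells gated as type 1 dendritic cells (at least 2 UMIs of Xcr1 and Clec9a, other limits alike). Of 7504 genes with at least 50 UMIs, 380 (5.06%) were at least 2-fold higher in the members in both libraries and 274 (3.65%) lower. The gates exclude each other by Xcr1 and Clec9a, so that the contrast is part of the rule. Of 15 type 1 subset genes with enough UMIs, 14 were lower in the members, and of 19 type 2 subset genes 13 were higher and 0 lower. Irf8, the factor of the type 1 subset, was at 12.1 against 2185 CPM in the control and at 139 against 2408 CPM in the KO library, where 1 member carried most of it. Tlr3, a sensor of double-stranded RNA, was at 0.467 against 281 CPM and 7.71 against 315 CPM. Batf3 was not a divider: it was at 189 against 198 CPM in the control and 153 against 207 CPM in the KO library.

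On the other side, Irf4 was at 134 against 40.8 CPM in the control (log2 ratio 1.71, 1.29 to 2.16) and at 114 against 5.66 CPM in the KO library. Il1rl1 was at 137 against 35.5 CPM and 129 against 3.77 CPM. Retnla was at 3349 against 104 CPM and 4791 against 20.7 CPM. Its sums over the members leaned on few cells, since the median Ccr7-negative member held 1 (control) or 0 (KO) Retnla UMIs. Of 14 type 2 signalling genes with enough UMIs, 7 were higher and 0 lower, and of 16 MHC class II genes 4 were higher, namely Ctss, H2-DMb2, Ifi30 and Lgmn, which cleave or load antigen, and 0 lower. H2-Ab1 itself had log2 ratios of 0.21 (0.17 to 0.24) and 0.29 (0.23 to 0.35). Cd86 was lower, with -1.13 (-1.62 to -0.64) and -2.22 (-3.39 to -1.18). Pgam1 had -0.01 in both libraries (-0.30 to 0.27 in the control library and -0.46 to 0.43 in the KO library). Of 37 mature dendritic cell genes with enough UMIs, 21 were higher in the members and 1, Cd86, lower. The members here include the 15 and 8 Ccr7-positive cells, and the rule takes in cells by Ccl22 and Ccl17, chemokines of mature dendritic cells. The count of mature genes is therefore in part set by the gates and is not read as a difference between the subsets.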

How the data were processed

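SVF cells of gWAT were captured in droplets with 3′ chemistry, and 1 library per genotype was analysed. The authors aligned reads to mm10 and counted UMIs with Cell Ranger 3.0.1, and the submitters' processing notes also name Seurat 3.1.5 and R 4.0.1. The deposited counts are raw whole-number UMI counts of 28692 genes in 8522 control and 2730 KO barcodes, with library totals of 42859406 and 13821581 UMIs. Strand and overlap settings of the counting are not given in the sources used here.

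The rule was applied to raw counts. The members and the 36 gene lists were chosen with earlier results of these data known. The UMIs of each gene were added up in a group and scaled to a total of 1000000 (CPM). Intervals are exact Poisson for CPM, Clopper-Pearson for shares and conditional binomial for ratios, all at 95%. Ratios against 0 UMIs were set against a floor of 3 UMIs over the group, and counts under 3 were raised to 3 before genes were ranked or counted as 2-fold. No ratio was given where both groups had at most 3. No p-value was computed.

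Named genes are the rule genes and markers, members of the lists, Pgam1 and Pgam2, the 15 largest differences each way in both libraries between Ccr7-positive and Ccr7-negative members, and the 10 largest each way for KO against control and for members against type 1 dendritic cells, among genes with at least 50 UMIs. Ccl22, Ccl17, Cd7, H2-Eb2 and the genes of the macrophage-marker split were described after their values were seen. A listed gene is not reported here. The steps were tested on simulated data. In all, 16 alternatives were planned, covering cell filters, gate limits, doublets (Scrublet, removing 0.8% per 1000 barcodes), scaling (edgeR TMM, median of ratios), cell weights, depth and UMI minimum, and 2 were added after seeing the data. Gene positions come from GENCODE M21 (28339 of 28692 identifiers found). The tools were R 4.3.3 with edgeR 4.0.16, and Python 3.11.15 with matplotlib 3.10.9, scanpy 1.11.5, scipy 1.17.1, numpy 2.4.6 and pandas 2.3.3.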

Additional observations from a re-analysis of the deposited data

Results flagged for a closer look

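For 4 named genes, the interval of the ratio between Ccr7-positive and Ccr7-negative members lay wholly on one side of 0 in the control library and wholly on the other side in the KO library. Over all genes measured, 653 intervals lay above and 1071 below 0 of 5963 in the control, and 450 and 497 of 4681 in the KO library. The share of all genes with opposite intervals is not given here. The difference between the libraries itself was not tested. For Ccl22 the log2 ratio was 5.63 in the control library and -0.74 in the KO library, and for Ccl17 it was 1.11 and -1.27. Both are genes of the rule, and both had most of their UMIs in few cells: 1 KO Ccr7-negative cell held 92.0% of the KO Ccr7-negative Ccl22 UMIs. For Ciita, the coactivator of MHC class II genes, it was -1.02 and 1.11, from 14 UMIs in 4 control and 24 UMIs in 4 KO Ccr7-positive cells. For Cd44, the hyaluronan receptor, it was 0.36 and -0.61. The part of single cells in these differences was not tested.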

How the results depend on the processing

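Each result was computed again under 16 other settings and 2 more chosen after seeing the data. Of the main shares and counts under another setting, 98 moved by less than their interval or by less than 1.5 times and 18 moved further. Of the values of single genes, 3035 moved little, 274 moved further and 26 changed sign. The cause was not tested where the construction of the setting does not show it. The share of cells in the gate moved with the cell filters, which change its denominator. It was 2.72% in the control library and 2.40% in the KO library with a minimum of 200 genes and a maximum of 20% mitochondrial UMIs, and 7.02% and 6.05% with 1000 genes and 5%. It was 2.92% and 1.75% when each cell was thinned to 2000 UMIs before gating, 3.14% in the control with no C1q UMI allowed, and 2.40% and 2.19% without members that had 10 or more UMIs of macrophage genes. The Ccr7-positive share of control members was 4.11% with Cd209a and Flt3 alone in the gate sum, and 16.1% without the members with macrophage transcripts. For KO against control, 126 genes were 2-fold lower with no C1q UMI allowed, and 92 were 2-fold higher with each cell weighted equally. With at least 20 UMIs 176 genes were higher and 622 lower, and with at least 100 UMIs 21 and 53. For members against type 1 dendritic cells, 177 genes were lower with at least 100 UMIs.

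Signs changed as follows (log2 ratios, KO over control unless stated). With the stricter cell filters Plac8 had -1.78, and -2.13 for members over type 1 dendritic cells in the KO library. Without the highest Scrublet scores Tagln had 1.21 for Ccr7-positive over Ccr7-negative control cells, and Cald1 -0.47 for control members over type 1 dendritic cells. With a gate sum of at least 5, Ccl24 had 0.21, Lpl -0.13, Lyz1 -0.041 and Retnla -0.040. With cells weighted equally Aldh1a2 had -0.24. In Ccr7-negative members alone, Anxa3 had -1.46, Ccl22 1.27, Ccl5 -0.69, Rogdi -0.22 and Tbc1d4 -0.046. Without members with macrophage transcripts, Aldh1a2 had -0.25, Fcrls -2.59, Fos 0.066, Gm12840 -0.038, Lyz1 -3.26, Lyz2 -0.97, Naaa -0.092 and Plac8 -0.70, and Tagln 0.99 for Ccr7-positive over Ccr7-negative control cells. Without cycling members, Aldh1a2 had -0.089, Lpl -1.002 and Retnla -0.49. With 1 library of each genotype no replicate could be left out, and the 23 Ccr7-positive and 36 KO cells limit what could be seen. No paired analysis was possible because each group had 1 library.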

Other observations

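Genes of lipid handling and of the lysosome differed in both directions between Ccr7-positive and Ccr7-negative members. Of 18 listed genes with enough UMIs, 3 were at least 2-fold higher in Ccr7-positive cells in both libraries and 6 lower, beside 5.10% and 5.39% of 5977 genes. Fabp5, a fatty acid binding protein, was detected in 15 of 15 control and 7 of 8 KO Ccr7-positive cells, at 3897 against 89.4 CPM in the control (log2 ratio 5.45, 5.20 to 5.69) and 2388 against 120 CPM in the KO library (4.32, 3.91 to 4.73). The membrane proteins Cd63 and Lamp1 were the other higher genes. Cd63 had log2 ratios of 5.02 (4.49 to 5.57) and 6.28 (4.83 to 8.21). Psap, the precursor of the saposins, was lower, with -2.06 (-2.29 to -1.84) and -1.29 (-1.56 to -1.03), as were Lgals3, Plin2, Ctsd, Cd68 and Lpl. Aldh1a2, which makes retinoic acid, had a log2 ratio of 3.06 (2.68 to 3.45) in the control, where 51.5% of the Ccr7-positive UMIs lay in 1 cell, and of -0.49 (-1.60 to 0.46) in the KO library.

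Receptors for uptake and recognition were lower in part in Ccr7-positive cells. Of 8 listed Fc receptor and complement genes with enough UMIs, 5 were lower and 0 higher, and of 14 recognition genes 4 were lower and 0 higher. Fcgr2b, the inhibitory Fc receptor, was detected in 128 of 147 control and 26 of 28 KO Ccr7-negative cells and in 4 of 15 and 2 of 8 Ccr7-positive cells. Cd14 and the lectin Cd209d had 0 UMIs in the Ccr7-positive cells of both libraries, against 168 and 354 UMIs in control and 65 and 62 UMIs in KO Ccr7-negative cells. Of 12 interferon-stimulated genes, Gbp2 and Mx1 were higher and Trim30a lower. Mx1 had log2 ratios of 3.21 (2.35 to 4.06) and 3.16 (1.83 to 4.57), the latter from 13 UMIs in 2 cells. Tgfb1 was the lower of 6 listed cytokines, with -2.27 (-3.28 to -1.42) and -2.03 (-3.36 to -0.95). Over all 5977 genes with enough UMIs, 5.10% were higher and 5.39% lower in both libraries. Single called genes of the short interferon and cytokine lists are therefore not read as a result about the lists.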
